A study of Mus musculus with 6 samples.

Results

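The histone genes of irradiated mouse LSKs were compared between Tespa1-/- and Tespa1+/+ animals. A gene was taken as a histone gene when its row was protein coding and its symbol began with a histone family name in the older spelling (Hist1h to Hist4h, H2af, H3f) or the newer one (such as H1f, H2ac, H2bc, H3c, H4c). This gave 75 of the 55487 rows of the table. Of these, 67 were clustered genes, that is, genes whose name in the GENCODE M21 annotation begins with Hist1h to Hist4h, and 8 were variant genes outside the clusters (H1f0, H1f7, H1f8, H1f10, H2az1, H2az2, H3f3a and H3f3b). The clustered genes comprised 6 of H1, 18 of H2A, 18 of H2B, 12 of H3 and 13 of H4. In the Hist1 cluster on chromosome 13 there were 54 of them, in Hist2 on chromosome 3 there were 10, in Hist3 on chromosome 11 there were 2, and Hist4 on chromosome 6 held 1. A further 11 rows carried such a name but were not protein coding and were left out. The spelling does not take in H2ax, H2aj, Macroh2a1, Macroh2a2 or Cenpa, which were followed as a separate list.

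DNA is wound around an octamer of the core histones H2A, H2B, H3 and H4, and the linker histone H1 binds where the DNA enters and leaves. Most of this protein is made in S phase from the clustered genes, which are transcribed at histone locus bodies. Their mRNAs as a rule end not in a poly-A tail but in a conserved stem-loop bound by SLBP, and they are degraded when replication stops. The variant genes (also called replacement histone genes) are outside the clusters, give polyadenylated mRNA throughout the cell cycle, and supply H3.3, H2A.Z and the linker histone H1.0 to chromatin between rounds of replication. In non-dividing and differentiating cells some clustered genes are also known to give polyadenylated mRNA from signals beyond the stem-loop.

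LSKs are the Lin- Sca-1+ c-Kit+ fraction of bone marrow, in which hematopoietic stem and multipotent progenitor cells lie. The 3 Tespa1+/+ samples were from irradiated littermates, and the 3 Tespa1-/- samples were from irradiated mice homozygous for a germline Tespa1 null allele, on a C57BL/6 background reached by more than 6 generations of backcrossing. Per the methods of the study, male mice of 8 to 10 weeks received 5.0 Gy total body irradiation and LSKs were taken on day 13. All 6 samples thus share the irradiation, and whether a sample was 1 mouse or a pool was not stated, so p-values measure the spread between these samples only. Libraries were made from poly-A selected RNA, which matters here because a histone mRNA that ends at the stem-loop is not retained as a poly-A tailed one is.

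The library totals were between 12856630 and 30576981 counts. Tespa1 itself was at 34.5, 32.7 and 35.9 CPM (counts scaled to a common library total) in Tespa1+/+ and at 15.3, 14.3 and 14.2 CPM in Tespa1-/- LSKs. Of 5 LSK markers (Kit, Ly6a, Cd34, Flt3, Hlf), 4 were called lower (19.2% of all genes were). The summed level of the 5 was between 1143 and 1168 CPM in Tespa1+/+ against 626.5 to 646.2 CPM in Tespa1-/- libraries. With the length correction described below, all 5 were lower at an adjusted p under 0.05 (24.0% of all genes). The log2 fold changes of Kit and Cd34 were then -0.52 and -0.41, under 1.5-fold, and that of Ly6a was -0.62, over 1.5-fold. Among 7 myeloid markers, 5 were called higher (14.0% of all genes were). Their summed level was 33.8 to 35.7 CPM against 360.8 to 372.9 CPM, and Ly6g had no counts in Tespa1+/+ libraries. The summed level of 6 erythroid markers was 17.01 to 18.2 CPM against 40.7 to 44.9 CPM, that of 4 B cell markers was 39.9 to 44.3 CPM against 32.4 to 36.0 CPM, and that of 3 T cell markers was at most 0.661 CPM in any library. The part that these cell type markers play in the histone values was not tested. In bulk samples, fewer cells of a type and less RNA per cell cannot be told apart.

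The stem-loop was located in the annotated transcripts first, because it marks where most clustered histone mRNAs end. It was found in 44 of the 67 clustered genes and in 0 of the 8 variant genes. In 22 clustered genes the annotated transcript ends within 100 bases of the stem-loop, and in 22 it runs 100 bases or more past it. In 23 no annotated coding transcript held a match to the 16-base pattern sought, which does not show that the gene lacks a stem-loop. The following elements are shown because they cover each of the 6 forms found and the genes on which the results below turn. Capitals mark the 16 bases of the stem-loop, lower case the 5 bases on each side, read 5′ to 3′ from GENCODE M21 transcripts (GRCm38), with T for U.
Hist1h2ao (chr13:21810898-21810913, plus strand): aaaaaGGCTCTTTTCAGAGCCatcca
H1f2 (chr13:23739512-23739527, plus strand): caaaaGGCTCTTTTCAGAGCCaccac
H2bc8 (chr13:23571843-23571858, plus strand): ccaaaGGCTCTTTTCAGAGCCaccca
H2aw (chr11:58955172-58955187, plus strand): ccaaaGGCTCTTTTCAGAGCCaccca
H3c6 (chr13:23561903-23561918, minus strand): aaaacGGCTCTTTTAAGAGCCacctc
H2ac20 (chr3:96220418-96220433, minus strand): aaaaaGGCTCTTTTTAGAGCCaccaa
H4c4 (chr13:23581950-23581965, plus strand): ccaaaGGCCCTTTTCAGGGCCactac
H4c9 (chr13:22040966-22040981, minus strand): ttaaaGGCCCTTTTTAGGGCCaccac
H4c11 (chr13:21735437-21735452, plus strand): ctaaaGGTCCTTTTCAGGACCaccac

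The form of Hist1h2ao was the commonest, with 26 genes from the H1, H2A, H2B and H3 classes. The form of H4c4 was found in 7 genes, all of H4, and the forms of H4c9 and H4c11 in 2 H4 genes each. The form of H3c6 was found in 6 genes and that of H2ac20 in 1. The stem-loop of Hist1h2ao is 31 bases from the end of its annotated transcript, whereas those of H2bc8, H1f2 and H2aw are followed by 155, 840 and 1643 bases. The promoters of clustered genes, taken as 250 bases before to 50 bases after each RefSeq start (GRCm38.p6), were also read. The letters TATAAA on either strand were in 56.5% of 62 clustered genes, in 12.5% of the 8 variant genes and in 15.7% of all 27025 genes in the promoter table. The letters CCAAT were in 85.5%, 62.5% and 41.1% of them, and the octamer ATTTGCAT was in 22.6%, 12.5% and 1.97%. Each motif was counted on its own, so windows may overlap, and a match is not evidence of a bound factor.

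To ask which histone mRNAs were counted at all, levels were compared per length, as FPKM. Hist1h2ao, an H2A gene (ENSMUSG00000094248, chromosome 13, 21810465 to 21810944), was far above the other members, at 2416 ± 174 FPKM (SD, n = 3) in Tespa1+/+ and 2778 ± 195 FPKM (SD, n = 3) in Tespa1-/- LSKs. Next came its near copy Hist1h2ap at 387 ± 19.9 and 438 ± 29.5 FPKM (SD, n = 3 each), the H3.3 gene H3f3b at 189 ± 1.31 and 217 ± 12.2 FPKM, H2bc8 at 119 ± 1.72 and 67.8 ± 2.04 FPKM, and the linker histone gene H1f2 at 86.2 ± 1.15 and 70.0 ± 1.79 FPKM. In Tespa1+/+ LSKs the ranges of these 5 genes did not touch, whereas in Tespa1-/- LSKs those of H2bc8 (65.6 to 69.5 FPKM) and H1f2 (68.9 to 72.1 FPKM) overlapped. Reads of Hist1h2ao cannot be told apart from those of other H2A genes with certainty, since 92.7% of its 100-base windows and 92.2% of those of Hist1h2ap occur in another annotated gene. How the authors assigned such reads was not given in the sources used here. Nor were the gene lengths behind the FPKM, which for some genes with several exons exceed the union exon length. In Tespa1+/+ replicate 1, 18662 counts of Hist1h2ao (480 union exon bases) gave 2216 FPKM. There 18799 counts of H3f3b (2976 bases) gave 187.7 FPKM, fewer than those lengths would give. Hist1h2ao held 52.4% to 56.1% of all clustered histone counts in Tespa1+/+ and 57.9% to 61.2% in Tespa1-/- libraries.

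**Figure D1:**
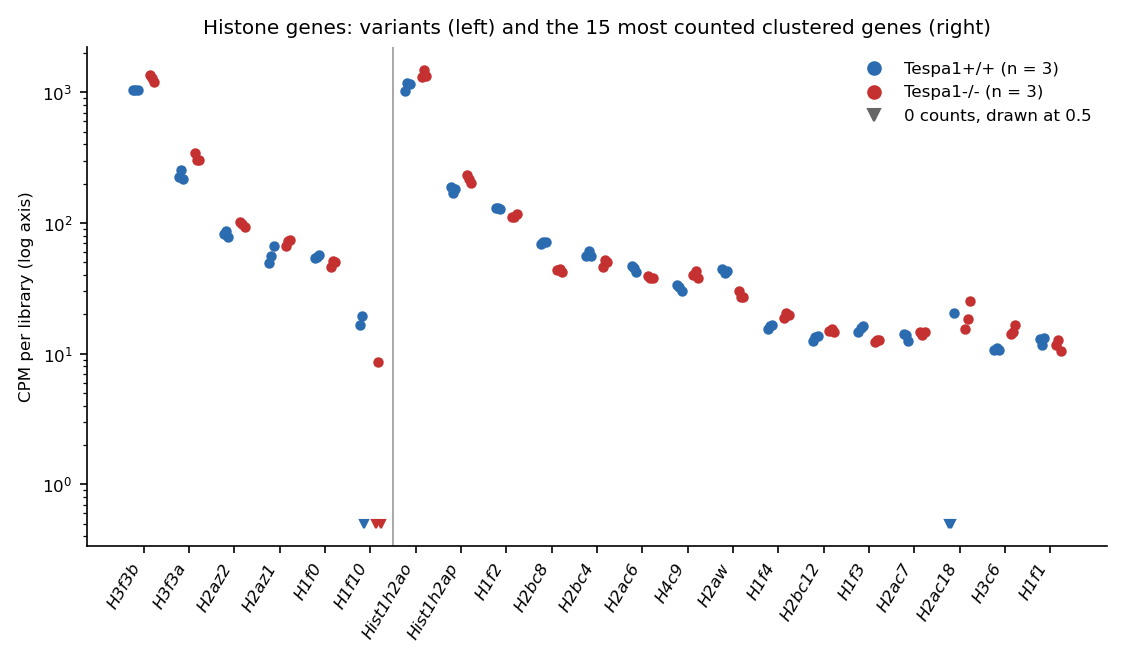
Level of the variant genes that were tested (left of the line) and of the 15 clustered genes with the most counts (right), with CPM on a log axis and each point a library. H3f3b and Hist1h2ao were above 1000 CPM in all 6 libraries, H2bc8 and H2aw were lower in the Tespa1-/- libraries without overlap, and H1f10 and H2ac18 had libraries with 0 counts, which are drawn as triangles at 0.5.

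Before the comparison, members that were present in some libraries of a group and absent from others were set aside to be named. For H2ac18 the 3 Tespa1+/+ libraries gave 0, 0 and 303 counts, and the 3 Tespa1-/- libraries 263, 269 and 316. Gm20634, whose exons overlap H2ac18 on the same strand, gave 0, 0 and 114 counts against 143, 139 and 82. H3c14, which Gm20634 also overlaps, went the other way, with 178, 315 and 58 against 73, 71 and 88 counts. H1f10, a linker histone variant gene, had counts of 303, 612 and 0 against 0, 126 and 0. H2bc6 had counts of 164, 281 and 18 against 154, 4 and 122, and its annotated exons overlap those of H1f4 and Gm11398 on the same strand. For H2ac18, H1f10 and H2bc6 the libraries of at least 1 group were thus more than 5-fold apart at 100 or more counts. The numbers of called genes below are the same without these 3 genes. Which step of the processing, if any, gave these zeros was not tested.

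Of the 75 histone genes, 69 had enough counts to be tested (63 clustered and 6 variant). The genes that were not tested include the germ cell linker histone genes H1f7 and H1f8, with 0 counts in every library, which allows up to 3 counts each. H1f6 (1 to 7 counts), H2ac1 (0 to 1), H2bc1 (1 to 4) and H2ac21 (6 to 16) were clustered genes at that low level, and the first 3 of these are known as testis-specific. Genes were tested with edgeR (quasi-likelihood F-test, adjusted over 15332 genes) and called when the adjusted p was under 0.05 and the fold was over 1.5. Fold changes are Tespa1-/- over Tespa1+/+.

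The fitted fold was under 1.5 in either direction for 59 of the 69 histone genes tested. Of 63 clustered genes tested, 4 were called higher (6.35%) and 4 lower (6.35%), whereas 14.0% of all genes tested were called higher and 19.2% lower. Without a minimum fold, 18 clustered genes were higher (28.6%) and 10 were lower (15.9%) at an adjusted p under 0.05, against 31.5% and 31.8% of all genes. Of the 6 variant genes tested, edgeR called 0 in either direction, DESeq2 also called 0, and at an unadjusted p under 0.05 with the same fold the count was 0 as well. Without a minimum fold, 4 variant genes were higher and 1 was lower. The groups did not overlap in 24 clustered genes that were higher (38.1%) and 12 that were lower (19.0%), against 34.5% and 34.6% of all genes tested. The median log2 fold change was 0.17 over the clustered genes and 0.27 over the variant genes tested, and 0.00 over all genes.

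These small shifts went along with gene length, and whether that came from the cells or from the libraries was not tested. Across the 15314 genes tested with a known length, the log2 fold change went down with the union exon length (Spearman's rho -0.47), a description across genes that share the same libraries. Clustered histone genes are short, with a median union exon length of 539 bases against 1704 bases for the variant genes. With a correction for this trend (a smooth offset on exon length in each library), the median log2 fold change of clustered genes was -0.16 and that of variant genes 0.06, while that of all genes was 0.07 and rho was -0.02. The clustered genes at an adjusted p under 0.05 then numbered 1 higher and 18 lower (34.1% and 24.0% of all genes in that fit). Of the 63 clustered genes, 43 were above 0 before the correction and 49 were below 0 after it, and corrected values are therefore given beside many of the results below.

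**Figure D2:**
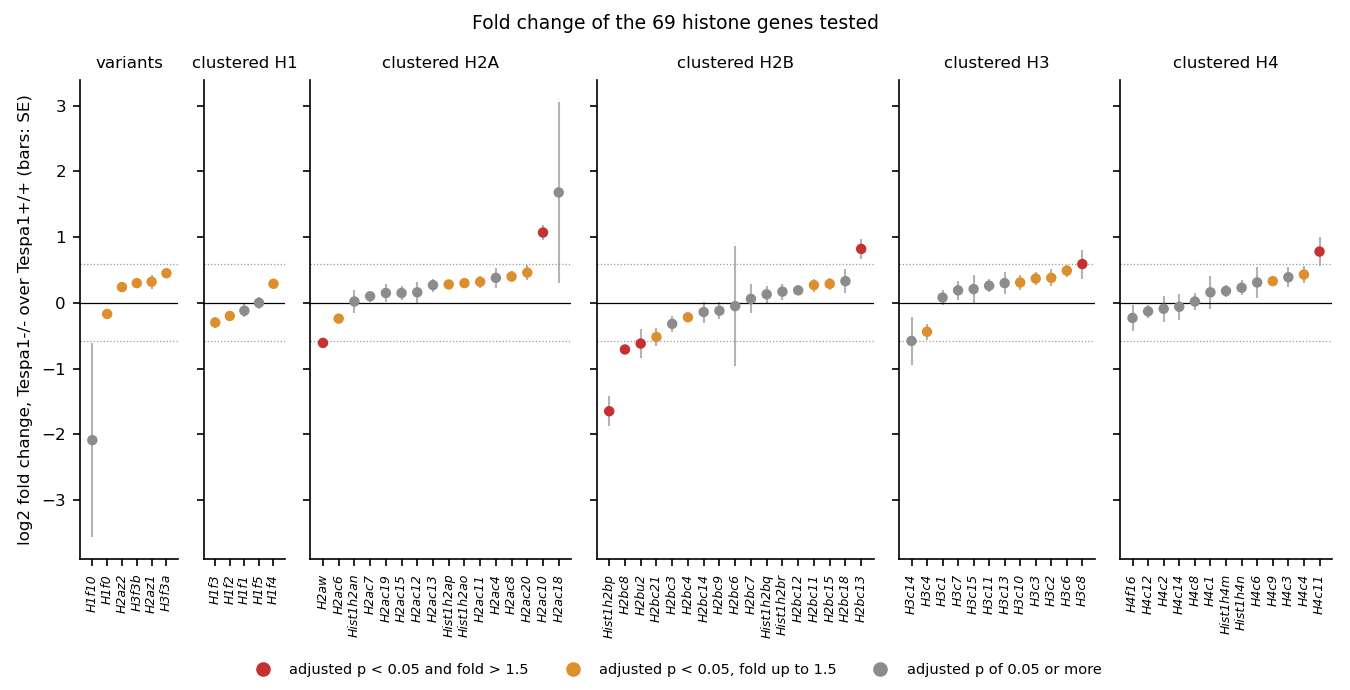
Log2 fold change (Tespa1-/- over Tespa1+/+) of the 69 histone genes tested, by class, with SE bars and dotted lines at a fold of 1.5. The 8 called genes are red and lie in the clustered H2A, H2B, H3 and H4 panels, and the wide bars belong to H1f10, H2ac18 and H2bc6, which had libraries at or near 0.

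The H3.3 genes H3f3a and H3f3b, which encode the same protein, were the most counted variants. H3f3b (ENSMUSG00000016559) was at 1035, 1037 and 1049 CPM in Tespa1+/+ and at 1350, 1297 and 1205 CPM in Tespa1-/- LSKs (log2 fold change 0.30, SE 0.04, edgeR adjusted p 4.8e-04). H3f3a (ENSMUSG00000060743) was at 225.5, 254.5 and 217.1 CPM against 343.8, 306.1 and 304.0 CPM (log2 fold change 0.45, SE 0.07, adjusted p 0.00122). Both rose without overlap between the groups, both by less than 1.5-fold, and with the length correction the log2 fold changes were 0.25 and 0.46, so that these were the 2 variant genes still higher. H3f3b gave 80.3% to 82.9% of the H3.3 counts in Tespa1+/+ and 79.7% to 80.9% in Tespa1-/- libraries, and these ranges overlapped.

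The H2A.Z genes, whose product is placed at promoters, were also higher by less than 1.5-fold. H2az2 was at 82.4, 87.6 and 78.7 CPM against 102.0, 98.9 and 92.5 CPM (log2 fold change 0.24, SE 0.06, edgeR adjusted p 0.00784). H2az1 was at 49.1, 55.7 and 66.6 CPM against 67.3, 72.7 and 73.9 CPM (log2 fold change 0.32, SE 0.11, adjusted p 0.0325). The highest Tespa1+/+ library of H2az1 was close to the lowest Tespa1-/- library. With the length correction H2az2 was at 0.01 and H2az1 at 0.11, with adjusted p of 0.91 and 0.382. The linker histone gene H1f0, known to accumulate in cells that leave the cycle, was the variant that fell, from 53.8, 55.1 and 57.2 CPM to 46.0, 51.0 and 50.2 CPM (log2 fold change -0.17, SE 0.06, adjusted p 0.0279), and was at -0.34 with the length correction. H1f10 had a log2 fold change of -2.09 with an SE of 1.48 (adjusted p 0.253), which rests on the libraries with no counts given above.

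Among clustered genes, the linker histone genes included both directions. H1f2 (ENSMUSG00000036181) was at 131.1, 131.1 and 128.2 CPM in Tespa1+/+ and at 112.0, 111.2 and 116.6 CPM in Tespa1-/- LSKs (log2 fold change -0.20, SE 0.03, edgeR adjusted p 0.00186). H1f3 was at 14.6, 15.8 and 16.3 CPM against 12.4, 12.7 and 12.7 CPM (log2 fold change -0.30, adjusted p 0.00993), but was at 0.07 with the length correction, its annotated exons being the longest among the members at 7425 bases. H1f4 rose from 15.6, 16.3 and 16.5 CPM to 18.9, 20.3 and 19.9 CPM (log2 fold change 0.29, adjusted p 0.00746) and was at 0.10 with the correction, with an adjusted p of 0.225. H1f1 and H1f5 had log2 fold changes of -0.12 and 0.00 and groups that overlapped. Of the 5 clustered H1 genes tested, 1 was thus higher, 2 were lower and 2 did not pass (31.5% of all genes were higher and 31.8% lower). With the correction 0 were higher and 3 lower (34.1% and 24.0% of all genes).

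The H2A genes held the most counts. Hist1h2ao was at 1027, 1179 and 1159 CPM in Tespa1+/+ and at 1321, 1492 and 1334 CPM in Tespa1-/- LSKs (log2 fold change 0.30, SE 0.07, edgeR adjusted p 0.00546). Hist1h2ap was at 189.0, 170.9 and 180.7 CPM against 233.8, 218.5 and 204.0 CPM (log2 fold change 0.28, SE 0.06, adjusted p 0.00468). Both were higher in 3 of 3 Tespa1-/- libraries, but with the length correction they were at -0.12 and -0.14, with adjusted p of 0.25 and 0.044. H2aw, the H2A gene of the Hist3 cluster (ENSMUSG00000078851, chromosome 11, 58954685 to 58956830), was called lower, with 44.4, 41.3 and 43.2 CPM against 30.0, 27.1 and 27.3 CPM (log2 fold change -0.61, SE 0.06, adjusted p 1.3e-04; -0.77 with the correction). Its exons overlap those of Trim17 on the same strand.

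H2ac6 fell from 47.2, 45.7 and 42.0 CPM to 39.0, 38.0 and 37.7 CPM (log2 fold change -0.24, SE 0.06, adjusted p 0.00993). H2ac10 (ENSMUSG00000061991) was called higher at a low level, from 2.53, 2.57 and 3.10 CPM to 5.81, 5.58 and 5.73 CPM, a 2.11-fold rise (log2 fold change 1.07, adjusted p 2.2e-04), and it was the clustered gene still higher with the length correction (0.65). No stem-loop was found in its annotated model, and 65.3% of its 100-base windows are shared with other genes. H2ac7 was at 14.2, 13.8 and 12.4 CPM against 14.7, 13.9 and 14.7 CPM (log2 fold change 0.10, adjusted p 0.335), with overlapping groups, and at -0.31 with the correction. Of 16 clustered H2A genes tested, 6 were higher and 2 lower at an adjusted p under 0.05 (31.5% and 31.8% of all genes). Their median log2 fold change was 0.28. With the length correction 1 was higher and 4 were lower (34.1% and 24.0% of all genes), with a median of -0.14.

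The H2B genes held 4 of the 8 calls. H2bc8 (ENSMUSG00000058385, chromosome 13, 23571396 to 23572013) was at 69.7, 71.7 and 71.6 CPM in Tespa1+/+ and at 43.9, 44.5 and 42.0 CPM in Tespa1-/- LSKs, a gap many times the spread within a group (log2 fold change -0.71, SE 0.04, edgeR adjusted p 1.1e-05; -1.11 with the length correction). Hist1h2bp was called lower at a low level, from 1.65, 2.19 and 2.43 CPM to 0.646, 0.620 and 0.726 CPM, or by 3.13-fold. H2bu2, the H2B gene of the Hist3 cluster, was called lower by 1.54-fold, and H2bc13 was called higher by 1.76-fold but was at 0.40 with the correction (adjusted p 0.0592). H2bc4, well counted at 55.8, 60.8 and 55.9 CPM against 46.2, 51.8 and 50.7 CPM, had a log2 fold change of -0.22 (adjusted p 0.0192; -0.52 with the correction). H2bc12 was at 12.4, 13.5 and 13.6 CPM against 15.03, 15.4 and 14.6 CPM (log2 fold change 0.19, adjusted p 0.0617) and turned to -0.23 with the correction. Of 17 clustered H2B genes tested, 3 were higher (17.6%) and 5 lower (29.4%) at an adjusted p under 0.05, against 31.5% and 31.8% of all genes. Their median was -0.05. With the correction 0 were higher and 8 lower (47.1%), against 34.1% and 24.0% of all genes, with a median of -0.35.

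Both genes of the Hist3 cluster were thus called lower (19.2% of all genes were). H2aw was called in 10 of 14 alternative settings and H2bu2 in 6. In the Hist2 cluster 1 of 9 genes tested was higher (H2ac20, log2 fold change 0.46) and 1 was lower (H2bc21, log2 fold change -0.52), both by less than 1.5-fold. The Hist1 cluster held 17 that were higher and 7 that were lower of 51 tested, against 31.5% and 31.8% of all genes. With the length correction it held 1 higher (1.96%) and 15 lower (29.4%), against 34.1% and 24.0% of all genes.

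The H3 and H4 genes were less counted. H3c6 was at 10.7, 11.0 and 10.7 CPM in Tespa1+/+ and at 14.2, 14.7 and 16.5 CPM in Tespa1-/- LSKs (log2 fold change 0.49, SE 0.09, edgeR adjusted p 0.00183; 0.13 with the length correction). H3c8 was called higher by 1.5-fold, but its groups overlapped and it was called in 3 of 14 alternative settings. Of 12 clustered H3 genes tested, 5 were higher and 1 lower (31.5% and 31.8% of all genes), the latter being H3c4 (log2 fold change -0.44). With the correction these were 0 and 1 (34.1% and 24.0% of all genes). H4c9 was at 33.6, 32.2 and 30.2 CPM against 39.9, 43.0 and 37.7 CPM (log2 fold change 0.33, SE 0.07, adjusted p 0.00463) and turned to -0.05 with the correction. H4c11 was called higher by 1.72-fold, and was at 0.41 with the correction (adjusted p 0.147). Of 13 clustered H4 genes tested, 3 were higher and 10 did not pass, with the same shares of all genes as for H3. With the correction 0 were higher and 2 lower (34.1% and 24.0% of all genes).

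The calls differed in how well they held. H2bc8, H2ac10 and Hist1h2bp were called in each alternative setting in which they could be fitted (14, 14 and 13 settings), and H2bc13 in 12 of 14. H2aw and H4c11 were called in 10 of 14 settings and H2bu2 in 6. H2aw was lost without Tespa1+/+ replicate 1 or Tespa1-/- replicate 2 or 3, and H4c11 without Tespa1-/- replicate 1, by DESeq2 and with the length correction. H2bc13 was lost with the length correction, and all 4 of H2aw, H2bu2, H2bc13 and H4c11 were lost by glmTreat, which tests against the fold of 1.5.

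The clustered genes were then described by the place of the stem-loop in the annotated transcript. In genes whose model ends at the stem-loop, 7 of 22 were higher and 1 was lower at an adjusted p under 0.05 (31.5% and 31.8% of all genes), with a median log2 fold change of 0.21. In genes whose model runs past it, 6 of 21 tested were higher and 7 were lower, with a median of -0.06. Where no stem-loop was found in the model, 5 of 20 were higher and 2 were lower, with a median of 0.17. The median union exon lengths of these sets were 484, 1255 and 411 bases. With the length correction these sets held 0, 0 and 1 higher and 7, 6 and 5 lower genes. The shares of lower genes were 31.8%, 28.6% and 25.0%, against 24.0% of all genes in that fit (34.1% were higher). The medians were -0.21, -0.12 and -0.15, so that the order of the first pair was reversed. The genes that run past the stem-loop held 0.0435% to 0.0459% of all counts in Tespa1+/+ and 0.0361% to 0.0374% in Tespa1-/- libraries, and those that end there held 0.140% to 0.154% against 0.165% to 0.182%, both without overlap. In the latter set most counts were those of Hist1h2ao. Of the 67 clustered genes, 17 have a poly-A signal (AATAAA or ATTAAA) in the last 50 bases of a model. Of the 16 of these tested, 3 were higher and 5 lower (31.5% and 31.8% of all genes). With the length correction these were 0 and 6 (34.1% and 24.0% of all genes).

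**Figure D3:**
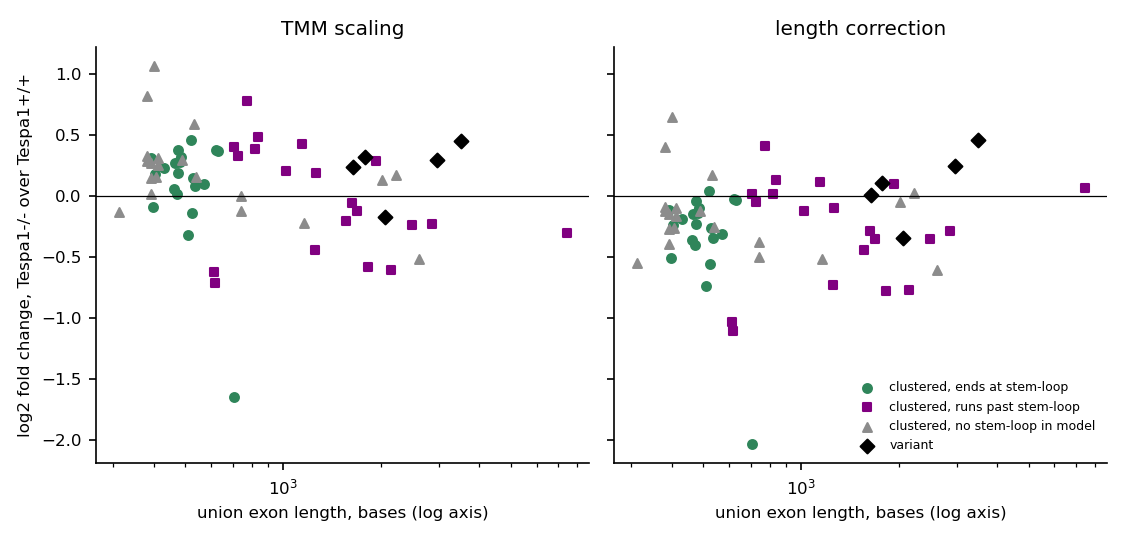
Log2 fold change against union exon length (log axis) for the histone genes tested, with TMM scaling (left) and with the length correction (right), without H1f10, H2ac18 and H2bc6. Most short clustered genes lie above 0 on the left and below 0 on the right, whereas H3f3a and H3f3b (the longest variants) stay above 0 in both.

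Many H2A and H2B genes are arranged head to head, with a short stretch between their starts. There were 12 such pairs of clustered genes with 176 to 306 bases between them, and both partners were tested in 11. Both partners differed in the same direction in 2 pairs, H2ac11 with H2bc11 (0.32 and 0.27) and H2ac6 with H2bc4 (-0.24 and -0.22). With the length correction the first pair was at -0.10 and -0.15 (adjusted p 0.382 and 0.241) and the second at -0.35 and -0.52. Before the correction, 2 other pairs differed in opposite directions. H2ac8 rose from 7.65, 7.16 and 7.29 CPM to 9.63, 9.44 and 10.2 CPM (log2 fold change 0.40), whereas H2bc8, whose start is 176 bases away, fell as given above. H2ac20 and H2bc21 had log2 fold changes of 0.46 and -0.52. After the correction H2ac8 and H2ac20 were at 0.02 and 0.04, so that only the fall of the H2B partners remained (-1.11 and -0.61). In 5 pairs 1 partner differed, and in 2 pairs neither did. The difference between the partners of a pair was not tested.

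**Figure D4:**
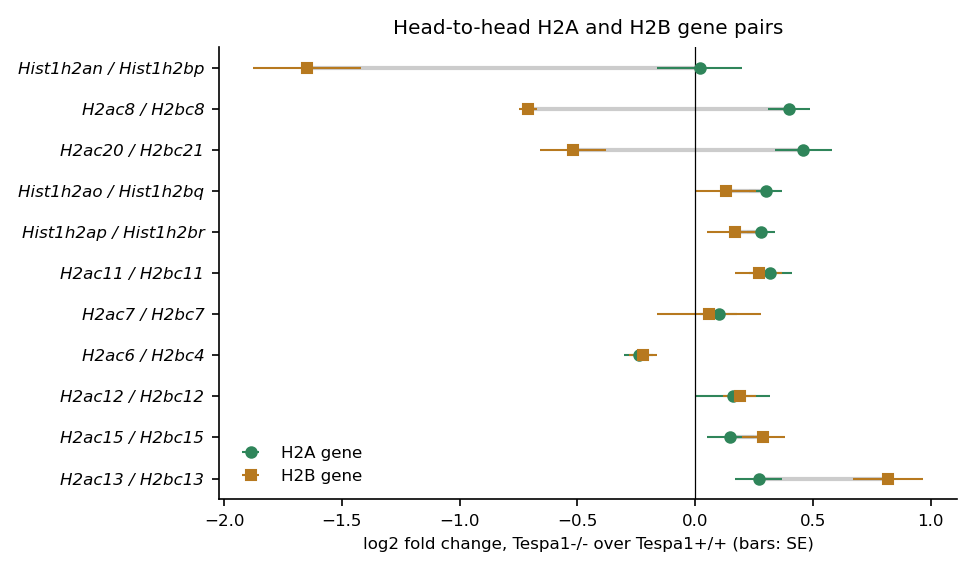
Log2 fold change (Tespa1-/- over Tespa1+/+, SE bars) of the H2A gene (circle) and the H2B gene (square) of the 11 head-to-head pairs in which both were tested. The partners lie close together in most pairs, and farthest apart in Hist1h2an with Hist1h2bp (0.02 and -1.65, or -0.39 and -2.04 with the length correction) and in H2ac8 with H2bc8 (0.40 and -0.71).

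The summed level of the histone genes was examined next. Clustered genes held 0.203%, 0.217% and 0.216% of all counts in Tespa1+/+ and 0.220%, 0.236% and 0.219% in Tespa1-/- libraries, so the Tespa1-/- libraries lay just above. Without Hist1h2ao, however, the clustered share was 0.0967%, 0.0951% and 0.0963% against 0.0926%, 0.0916% and 0.0906%, that is, lower and without overlap. Variant genes held 0.151%, 0.156% and 0.152% of counts against 0.184%, 0.177% and 0.166%. As a share of the summed FPKM, which weighs short genes more, clustered genes were at 1.005%, 1.09% and 1.09% against 0.927%, 1.01% and 0.925%, and variant genes at 0.0946%, 0.0988% and 0.0921% against 0.0884%, 0.0872% and 0.0811%. The direction of the summed histone share thus depended on the unit and, for clustered genes, on 1 gene. A lower share of summed FPKM is not a lower FPKM of each gene. The mean FPKM of the most counted clustered gene, Hist1h2ao, rose from 2416 to 2778, and that of H3f3b from 189 to 217. Those of H2bc8 and H1f2 fell, as given above.

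**Figure D5:**
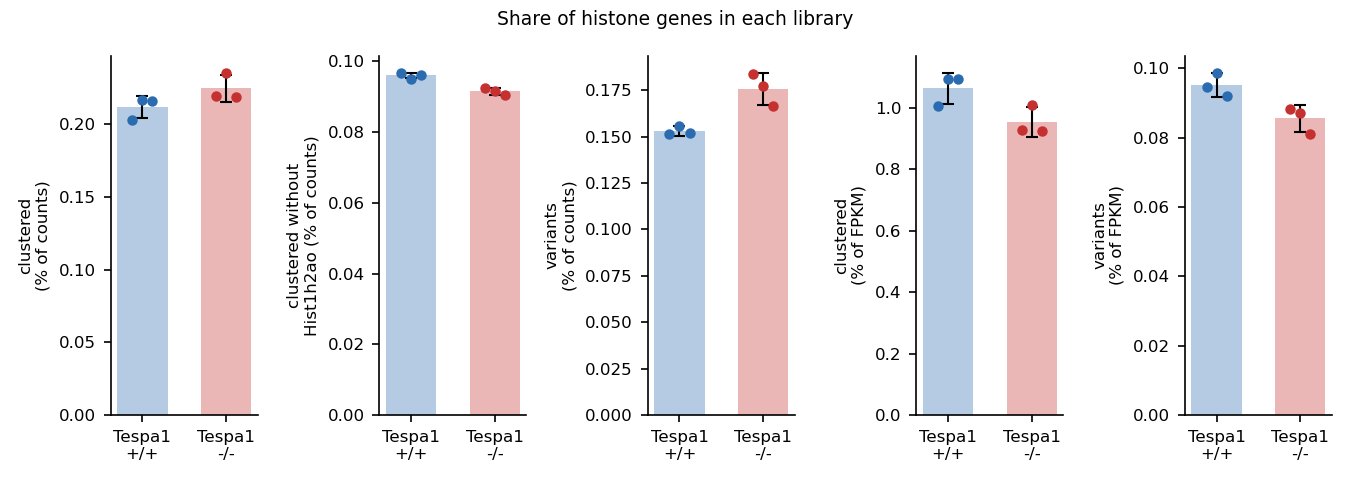
Share of clustered and variant histone genes in each library, as percent of counts and of summed FPKM (bars are means, error bars SD, points the 3 libraries of a group). The count shares were higher in Tespa1-/- libraries except for clustered genes without Hist1h2ao, and the FPKM shares were lower on average.

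Within each class, the share of clustered against variant mRNA was then compared. Of the summed H3 FPKM, clustered genes gave 32.8% ± 0.244 (SD, n = 3) in Tespa1+/+ and 31.5% ± 1.21 (SD, n = 3) in Tespa1-/- LSKs, the rest being H3.3. By counts these shares were 5.90% ± 0.226 and 5.25% ± 0.305, and the groups did not overlap by either unit. The FPKM shares of a class depend on the lengths behind the FPKM, which for H3f3a, H3f3b, H2az1 and H2az2 exceed the union exon lengths. The size of such a share is thus uncertain. Of H2A, clustered genes gave 98.1% ± 0.0529 and 98.1% ± 0.0846 of the FPKM, with overlap between the groups, but only H2az1 and H2az2 stand for the variants here. With H2ax, H2aj, Macroh2a1 and Macroh2a2 added, which was decided after seeing the data, the clustered share was 83.6% ± 0.482 and 85.6% ± 0.501, without overlap. Of H1 they gave 77.3% ± 4.06 and 81.4% ± 2.71, a share that moves with the zeros of H1f10. The H2B genes taken here were all clustered.

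Genes that make, process and degrade histone mRNA were compared as companions. Of 23 genes of histone mRNA synthesis, processing and decay, 2 were called higher and 5 lower (14.0% and 19.2% of all genes), and at an adjusted p under 0.05 alone 8 were higher and 10 lower (31.5% and 31.8% of all genes). The larger number of falls was lost with the length correction, which gave 1 call each way. By adjusted p alone it gave 11 higher and 4 lower, against 34.1% and 24.0% of all genes. The share of all genes called with a minimum fold in that fit was not computed, here or for the lists below. Slbp, which binds the stem-loop, was at 85.9, 87.1 and 92.1 CPM in Tespa1+/+ and at 99.2, 102.5 and 102.6 CPM in Tespa1-/- LSKs (log2 fold change 0.20, SE 0.04, edgeR adjusted p 0.00422; 0.48 with the length correction). Npat, the coactivator of histone locus bodies, was called lower, from 46.4, 46.0 and 47.5 CPM to 30.8, 29.8 and 30.2 CPM (log2 fold change -0.62, SE 0.05, adjusted p 3.0e-05; -0.33 with the correction). Its partner Casp8ap2 (FLASH) was at -0.27 (adjusted p 0.0375), which turned to 0.06 with the correction.

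Of the U7 snRNP proteins that direct the cleavage, Lsm10 was called higher (log2 fold change 0.84, adjusted p 0.0267), the largest rise of the list before the length correction and 0.50 with it (adjusted p 0.14), and Lsm11 was at 0.07 (adjusted p 0.377), turning to -0.03 when libraries were scaled by total counts alone. Zfp473, a zinc finger protein of the same complex, was at 0.11 (adjusted p 0.71), and at -0.17 without Tespa1-/- replicate 1. Eri1, the exonuclease that trims the stem-loop end, was at -0.17 (adjusted p 0.0031) but at 0.28 with the length correction. The largest fall was that of Smg1, a kinase of RNA decay, at -1.34 (adjusted p 8.7e-07; -0.43 with the correction).

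Of 39 histone chaperone and exchange genes, 4 were called higher and 4 lower (14.0% and 19.2% of all genes), and 15 were higher and 15 lower without a minimum fold (31.5% and 31.8% of all genes). After the length correction 5 were called higher and 1 lower. Without a minimum fold 23 were then higher and 4 lower, against 34.1% and 24.0% of all genes in that fit. Asf1b, the H3 and H4 chaperone of proliferating cells, had the largest rise, from 33.6, 33.9 and 32.3 CPM to 57.4, 55.2 and 52.8 CPM (log2 fold change 0.73, SE 0.05, edgeR adjusted p 2.4e-05; 0.60 with the length correction), and its paralog Asf1a was at 0.28 (adjusted p 0.00155). Nasp, which stores H3 and H4, rose by 0.24 on the log2 scale (adjusted p 1.9e-04). Of the CAF-1 subunits that deposit H3 behind the replication fork, Chaf1a was at 0.06 (adjusted p 0.396) and Chaf1b at -0.04 (adjusted p 0.434), and both moved in other settings. Chaf1a was at 0.51 with the length correction (adjusted p 2.5e-04) and at -0.04 with total counts, and Chaf1b at 0.11 with the correction (adjusted p 0.0609).

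Among genes that deposit H3.3, Hira was at -0.13 (adjusted p 0.0247), Atrx was called lower at -0.61 (adjusted p 9.8e-05), and Daxx was at 0.15 (adjusted p 0.0846). Hira and Atrx turned to 0.16 and 0.26 with the length correction. Of the H2A.Z genes, Anp32e, which removes H2A.Z, rose by 0.25 (adjusted p 0.00134), and Srcap, the ATPase that inserts it, had the largest fall of the list, from 129.0, 123.1 and 151.4 CPM to 19.0, 32.6 and 21.3 CPM (log2 fold change -2.47, SE 0.20, adjusted p 3.7e-05; -1.75 with the correction). Other exchange genes of the list went both ways. Znhit1 and Ruvbl2 were called higher (log2 fold changes 0.69 and 0.65) and Ep400 was called lower (-1.17). With the correction they were at 0.50, 0.59 and -0.51 (adjusted p 0.0891 for Ep400). Hjurp, the chaperone of centromeric Cenpa, was at -0.05 (adjusted p 0.672) and Cenpa at -0.04 (adjusted p 0.722), both with overlapping groups. With the length correction these were 0.38 (adjusted p 0.00804) and 0.22 (adjusted p 0.0547).

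Of 17 S phase genes, 2 were called higher and 2 lower (14.0% and 19.2% of all genes), and 5 were higher and 3 lower by adjusted p alone (31.5% and 31.8%). With the length correction 2 were called higher and 0 lower. By adjusted p alone 10 were then higher and 3 lower, against 34.1% and 24.0% of all genes. The median moved from -0.01 to 0.14, and that of all genes from 0.00 to 0.07. Ccne1 (cyclin E1), which drives entry into S phase, had the largest rise (log2 fold change 0.76, adjusted p 5.4e-05) and Mki67, a marker of cycling cells, the largest fall (-0.72, adjusted p 2.1e-06; -0.21 with the correction). Of the 5 histone variants outside the spelling of the rule, 2 were higher and 1 was lower at an adjusted p under 0.05, all by less than 1.5-fold. Over all genes these shares were 31.5% and 31.8%. H2aj rose most, from 108.7, 116.2 and 122.8 CPM to 168.6, 172.6 and 167.0 CPM (log2 fold change 0.55, SE 0.05, adjusted p 6.3e-05; 0.35 with the correction). The DNA damage associated H2ax was at 0.12 (adjusted p 0.029) and turned to -0.14 with the correction, and Macroh2a1, the most counted histone gene examined at 1884 to 2147 CPM, was at -0.14 (adjusted p 0.00216) and turned to 0.20.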

How the data were processed

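Poly-A RNA of 3 Tespa1+/+ and 3 Tespa1-/- LSK samples was sequenced as stranded paired-end libraries. The authors deposited raw counts and FPKM per gene in 1 table; the submitters' notes name CASAVA 1.8, HISAT2, StringTie, edgeR and GRCm38, without roles, and the strand setting and the handling of multi-mapping reads are not given in the sources used here. All 75 histone loci matched GENCODE M21. The table mostly uses newer names, so clustered genes were recognised by M21 names through Ensembl IDs.

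The deposited counts were filtered (filterByExpr), scaled (TMM) and tested with edgeR 4.0.16 in R 4.3.3 (quasi-likelihood F-test, Benjamini-Hochberg adjustment, no covariates); DESeq2 1.42.0 was an alternative. CPM are TMM-scaled. SE is the log2 fold change over the root of F. The length correction is a loess offset (span 0.5) on union exon length. FPKM were used as deposited, and the gene lengths behind them are not given. The scripts were tested on simulated data. Counting error is small for abundant genes, and reads are not independent molecules. Groups came from sample titles. Named were all tested variants, the 15 most counted clustered genes, other called ones by fold, and fixed companions. H2ac8, H2ac20, H2bc21, H2ac18, H2bc6, H3c14, H1f5, H3c4, H2bc11, H2ac11, Hist1h2an, H2ax, Znhit1, Ruvbl2, Ep400 and the untested members were named after their values were seen. Members and lists were chosen with earlier results of these data known. A further marker of the LSK list is not reported here.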

Additional observations from a re-analysis of the deposited data

How the results depend on the processing

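Of the 52 genes named by rule, 20 stayed on 1 side of 0 and of an adjusted p of 0.05 in every alternative run. The length correction changed most. It gave 1 clustered gene called higher and 7 lower, a share not computed over all genes. It also gave medians of -0.16 (clustered), 0.06 (variant) and 0.07 (all genes). It turned Hist1h2ao to -0.12, Hist1h2ap to -0.14, H4c9 to -0.05, H2bc12 to -0.23, H1f3 to 0.07, H2ac7 to -0.31 and Casp8ap2 to 0.06. Eri1 turned to 0.28, Chaf1b to 0.11, Hira to 0.16, Atrx to 0.26, Hjurp to 0.38, Cenpa to 0.22 and Macroh2a1 to 0.20. Of the genes named after their values were seen, H2ax, H2ac11, H2bc11, H2bc6 and Hist1h2an also changed sign with it. Total counts without factors shifted all genes by -0.10, gave medians of 0.07 and 0.17, and turned H2ac7 to 0.00 (just below 0), Lsm11 to -0.03 and Chaf1a to -0.04. DESeq2 called 2 clustered genes higher and glmTreat 1 higher and 2 lower. Without a minimum fold there were 18 and 10, and 4 and 1 variants. Leaving out 1 library gave 2 to 4 clustered genes higher (2 without Tespa1-/- replicate 1) and 2 to 4 lower (2 without Tespa1+/+ replicate 1 or Tespa1-/- replicate 2). Zfp473 ranged from -0.17 to 0.30. Without Tespa1-/- replicate 1, Zfp473 was the lower of these, Hjurp was 0.03 and Cenpa 0.04. Without Tespa1+/+ replicate 3 the last 2 were 0.02 and 0.04, and without Tespa1+/+ replicate 1 Chaf1a was at 0.00. The log2 ratio of the clustered share was 0.09 by counts, -0.16 by FPKM and -0.07 without Hist1h2ao, and that of the variant share 0.20 and -0.15. The cause was not tested. Leaving out H2ac18, H2bc6 and H1f10, chosen after seeing the data, changed no count. With the other H2A variants added, also chosen then, the clustered share of H2A was 1.96 points higher in Tespa1-/- libraries.

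Same-numbered samples did not deviate together (correlations of -0.07, -0.08 and 0.01). The numbers thus gave no sign of a pairing, but with 3 samples in a group this cannot exclude one. With the replicate number as a block, 3 clustered genes were higher and 3 lower.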
